A study of Mus musculus with 6 samples.

Results

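The interleukin-1 family genes described here are the ligands Il1a and Il1b, their antagonist Il1rn, the receptor chains Il1r1, Il1r2 and Il1rap, the ligand Il33 with its receptor Il1rl1, and the ligand Il18 with its soluble inhibitor Il18bp. They were taken by name from a table of 24318 rows, and all 10 were present. The libraries were made from whole liver of C57BL/6 mice of genotype VEcadCreERT2/TAK1flox/flox, in which tamoxifen activates a Cre recombinase driven by the VE-cadherin promoter and so deletes the kinase TAK1 in endothelial cells. Knockout livers came from mice given tamoxifen and control livers from mice of the same genotype that were not treated, with 3 libraries in each group. Deletion of TAK1 and exposure to tamoxifen therefore cannot be told apart, and neither age nor sex is stated. The design asks how liver transcripts differ after the loss of endothelial TAK1.

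Interleukin-1 alpha and beta are inflammatory cytokines that act through the receptor chain encoded by Il1r1, which needs the accessory chain encoded by Il1rap to signal. Binding recruits the adaptor MyD88 and IRAK kinases and leads through TRAF6 to TAK1, which activates NF-kB and MAP kinases, so TAK1 is itself a step of this pathway. The family holds several brakes. The protein of Il1rn occupies the receptor without activating it, that of Il1r2 is a decoy that binds ligand but cannot signal, and that of Il18bp captures interleukin-18. In liver, macrophages and infiltrating myeloid cells are known sources of interleukin-1, and hepatocytes respond to it with acute phase proteins.

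The values are FPKM (sequenced fragments scaled by transcript length and by the size of the library), which are already divided by transcript length, so levels can be compared between genes. Group values are mean ± SD over 3 libraries. A log2 fold change is the mean of log2(FPKM + 0.5) in knockout minus that in control libraries, given with its standard error; the added constant shrinks the change of a gene near 0. The test was limma with Benjamini-Hochberg adjustment over the 11842 genes that averaged at least 0.5 FPKM, and a gene was called at an adjusted p under 0.05. Of these genes 27% were called, with 14.1% higher and 13% lower in knockout livers. Map3k7, the gene of TAK1, measured 8.50 to 9.14 FPKM in the controls and 7.35 to 9.31 FPKM in the knockouts (log2 fold change -0.04 ± 0.16, adjusted p = 0.868), but other liver cells express it too and truncated transcripts would still be counted, so it does not check the labels. Hepatocyte marker genes were abundant in all libraries, with a summed level of 17348 to 23559 FPKM in control and 11072 to 13147 FPKM in knockout livers. Whole liver RNA cannot tell a change in the number of cells of a type from a change in RNA per cell.

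Of the 9 family genes that were abundant enough to test, 4 were higher in knockout livers (Il1b, Il1rn, Il1r2 and Il18bp), 1 was lower (Il1rap) and 4 were not called (Il1a, Il1r1, Il33 and Il18). Among all genes tested 14.1% were called higher and 13% lower. The groups did not overlap for the 5 called family genes, as for 43.5% of all genes tested. The decoy receptor Il1r2 was among the genes tested only through its knockout values, since its control values lay below the minimum. Il1rl1 did not reach the minimum and is described by its values alone.

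**Figure D1:**
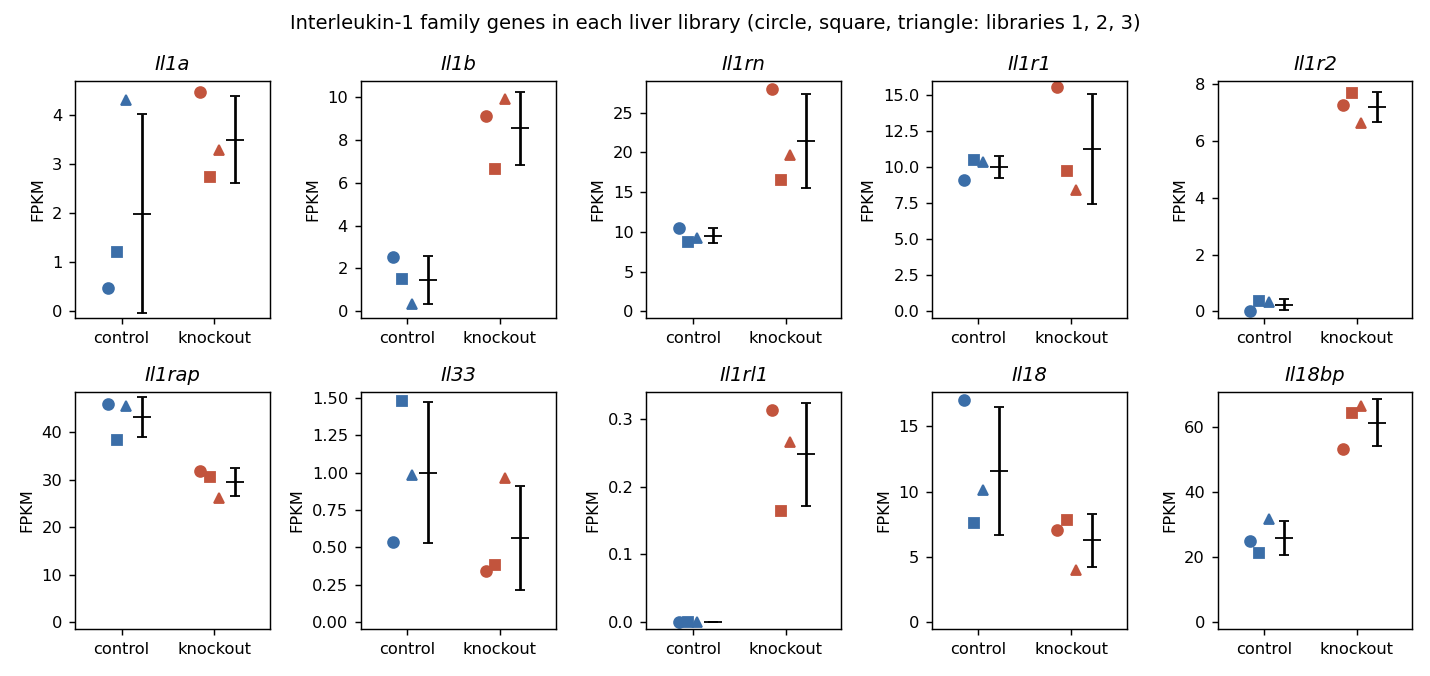
FPKM of the 10 genes in each library, 1 panel a gene with its own axis from 0; circles, squares and triangles are libraries 1, 2 and 3, and the bar beside them is the mean ± SD of 3 libraries. Il1r2 sat at 0 to 0.373 FPKM in the controls and 6.63 to 7.69 FPKM in the knockouts, whereas the groups of Il1r1 and Il1a overlapped.

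Among the ligands, Il1b measured 2.55, 1.51 and 0.337 FPKM in control libraries 1 to 3 and 9.11, 6.62 and 9.89 FPKM in knockout libraries 1 to 3. Every knockout library exceeded every control library, and the controls differed widely among themselves. Il1b rose from 1.47 ± 1.11 to 8.54 ± 1.71 FPKM, a log2 fold change of 2.37 ± 0.42 (adjusted p = 0.00333). Its control mean rested partly on control 1, without which it was 0.926 FPKM. The log2 fold change was 1.85 to 2.78 when each library was left out in turn, and the call was kept each time. Il1a, whose protein is active without cleavage and is known as an alarm signal released by damaged cells, measured 0.467, 1.21 and 4.31 FPKM in the controls and 4.48, 2.74 and 3.29 FPKM in the knockouts. Control 3 lay within the knockout range and the other controls lay below it. The log2 fold change of 0.98 ± 0.50 did not pass the test (adjusted p = 0.181, 95% interval -0.15 to 2.11), whereas without control 3 it was 1.62 with an adjusted p of 0.0108 and without control 1 it was 0.46 with an adjusted p of 0.509. Control 3 also had the highest level of the macrophage scavenger receptor Marco of the 6 libraries (267 FPKM, against 65.2 and 69.4 FPKM in the other controls and 141 to 210 FPKM in knockouts), and its summed Kupffer cell marker level was 1279 FPKM against 773 and 823 FPKM in controls 1 and 2. Other marker sums of control 3 stood apart too. Its neutrophil markers summed to 78.3 FPKM, against 37.6 and 51.0 FPKM in controls 1 and 2. Its endothelial markers summed to 205 FPKM, against 132 and 151 FPKM. Its hepatocyte marker sum was the lowest of the controls (17348 FPKM). The part of any cell type in its Il1a value was not tested. Control 3 was the highest control for Il1a and the lowest for Il1b.

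The antagonist gene Il1rn measured 10.5, 8.70 and 9.25 FPKM in the controls and 28.0, 16.5 and 19.7 FPKM in the knockouts. The controls were close together and the knockouts spread more widely, with knockout 1 the highest. Il1rn rose from 9.49 ± 0.938 to 21.4 ± 5.91 FPKM, a log2 fold change of 1.10 ± 0.20 (adjusted p = 0.00406), and kept its call without each library in turn. The values are per gene, so the secreted and intracellular forms of the antagonist, which start from different exons, cannot be told apart.

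Many low values of the table fall on whole multiples of a step that differs by gene, as they would if each fragment added a fixed amount. After correction for the relative depth of the libraries, which was 0.921 to 1.08 times that of control 1, the Il1b values lay on 7, 4 and 1 steps in control and 26, 17 and 25 steps in knockout libraries. Those of Il1a lay on 2, 5 and 20 steps in control and 20, 11 and 13 steps in knockout libraries. No value of either gene was more than 0.0576 steps from a whole number. If 1 step is 1 fragment, which the files do not state, Il1b rested on 12 fragments over all controls and 68 over all knockouts, and the spread among controls includes counting error of that size.

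Of the receptor chains, the decoy Il1r2 changed most. It was listed at 0 in control 1 and measured 0.373 and 0.333 FPKM in controls 2 and 3, against 7.26, 7.69 and 6.63 FPKM in knockout libraries. The knockouts were close together and far above every control. On the step scale these were 0, 1 and 1 steps against 21, 20 and 17 steps. The mean went from 0.235 ± 0.205 to 7.19 ± 0.529 FPKM, with a log2 fold change of 3.43 ± 0.28 (adjusted p = 8.80e-05), and it kept its call without each library in turn (3.17 to 3.57). That change was the 41st highest of the 11842 genes tested. The fold of a gene this close to 0 in control depends on the added constant, and the log2 fold change was 4.73 with a constant of 0.1 and 2.74 with a constant of 1.

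The signalling receptor Il1r1 measured 9.11, 10.5 and 10.4 FPKM in the controls and 15.6, 9.78 and 8.39 FPKM in the knockouts. Knockout 1 was above all controls and knockout 3 below all of them. The log2 fold change of 0.12 ± 0.22 was not called (adjusted p = 0.738, 95% interval -0.39 to 0.62), and without knockout 1 it was -0.13. The accessory chain Il1rap measured 45.9, 38.4 and 45.5 FPKM in the controls and 31.9, 30.5 and 26.2 FPKM in the knockouts, so that every knockout lay below every control. Il1rap fell from 43.2 ± 4.24 to 29.6 ± 3.01 FPKM, with a log2 fold change of -0.54 ± 0.14 (adjusted p = 0.0215). This call was lost without control 1 (adjusted p = 0.0829), control 3 (0.0553) or knockout 3 (0.0664), at log2 fold changes of -0.50, -0.50 and -0.46. Hepatocyte marker genes were lower beside it, with 5 of 10 called lower and none higher, against 13% called lower among all genes. Their median log2 fold change was -0.58, and their part in the Il1rap result was not tested. The accessory chain serves the interleukin-33 receptor as well as Il1r1, and its soluble form, known from liver, cannot be separated from the membrane form here.

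**Figure D2:**
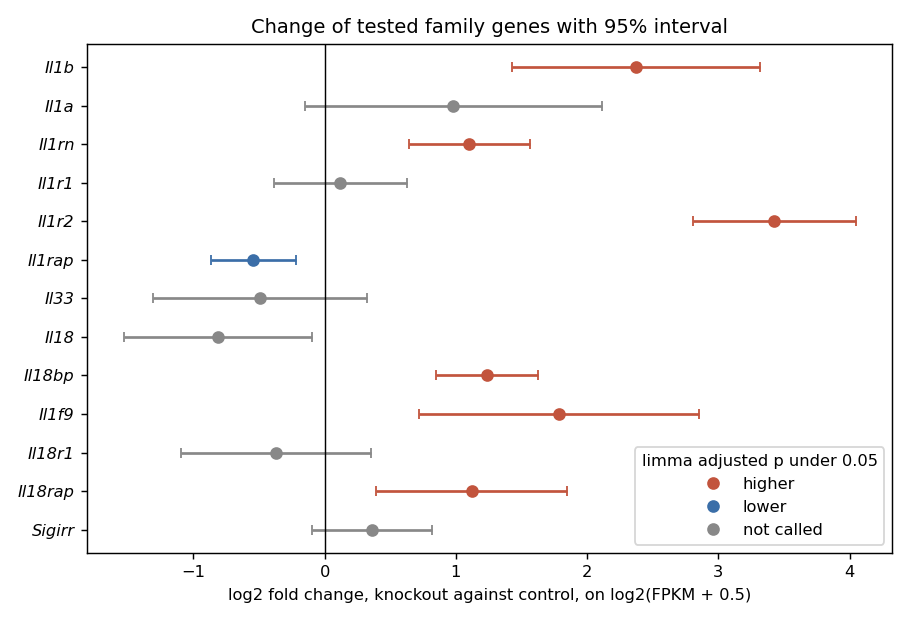
Log2 fold change of knockout against control with its 95% interval from limma (not adjusted for the number of genes), for the 9 tested family genes and 4 further relatives, 3 libraries a group. The intervals of Il1b, Il1rn, Il1r2, Il18bp, Il1f9 and Il18rap lie above 0 (Il1r2, Il1f9 and Il18rap were tested only through their knockout values), that of Il1rap lies below 0, and that of Il18 also lies below 0 although its adjusted p of 0.0897 was not called.

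In the interleukin-18 pair, the inhibitor rose and the ligand was not called. Il18bp measured 25.0, 21.3 and 31.7 FPKM in the controls and 53.3, 64.4 and 66.5 FPKM in the knockouts, with no overlap. Il18bp rose from 26.0 ± 5.23 to 61.4 ± 7.11 FPKM, a log2 fold change of 1.24 ± 0.17 (adjusted p = 0.00113), and kept its call without each library in turn. It was the most abundant of the 10 genes in knockout livers. Il18, which encodes an inducer of interferon gamma in T and NK cells, measured 17.0, 7.58 and 10.2 FPKM in the controls and 7.04, 7.80 and 3.96 FPKM in the knockouts. Control 1 was the highest library, and control 2 lay between knockouts 1 and 2. The log2 fold change of Il18 was -0.81 ± 0.32 and did not pass (adjusted p = 0.0897, unadjusted p = 0.0309). Without control 1 it was -0.51, and without knockout 3 it was -0.54.

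The interleukin-33 pair was near the floor of the measurement. Il33, the gene of a nuclear alarmin of endothelial, epithelial and stellate cells, measured 0.534, 1.48 and 0.985 FPKM in the controls and 0.341, 0.380 and 0.966 FPKM in the knockouts. These were 3, 8 and 6 steps against 2, 2 and 5 steps, and the groups overlapped. The log2 fold change of -0.50 ± 0.36 was not called (adjusted p = 0.35, 95% interval -1.31 to 0.32). It was -0.27 without control 2 and -0.75 without knockout 3. Its receptor Il1rl1, known as ST2 and carried by mast cells, basophils, type 2 innate lymphoid cells and some T cells, was listed at 0 in all controls and at 0.314, 0.164 and 0.267 FPKM in knockout libraries. Every knockout library held some Il1rl1 signal, but the gene was too low to test. Of 10 basophil and mast cell genes, 3 were tested and these 3 were called higher, against 14.1% called higher among all genes. Of the 3, 2 were tested only through their knockout values, so this count partly follows from the minimum. The summed level of the list was 1.51 to 2.92 FPKM in the controls and 11.1 to 14.4 FPKM in the knockouts. Hdc held 86.3% of the control sum. The other 9 genes summed to 0.142 to 0.552 FPKM in the controls and 5.64 to 9.89 FPKM in the knockouts. Gata2 averaged 0.181 FPKM in control and 0.136 FPKM in knockout livers, and Tpsb2 was seen only in control 3. The basophil proteases Prss34 and Mcpt8 were listed at 0 in every control. They reached 3.10 to 5.69 and 0.677 to 2.75 FPKM in knockouts. The mast cell protease Mcpt4 was listed at 0 in all 6 libraries. Cpa3, from the same list, was at 0 in every control and at 0.316, 0.351 and 0.713 FPKM in knockouts. Fcer1a, Ms4a2 and Cma1 were seen only in knockout libraries, none of them in all 3. Of 12 T, NK and innate lymphoid cell genes, 8 were tested, 2 were higher (Cd3d and Il7r) and none lower, against 14.1% higher among all genes. Their summed level was 8.62 to 12.4 FPKM in the controls and 17.7 to 23.4 FPKM in the knockouts. Il7r, the interleukin-7 receptor chain, averaged 0.094 FPKM in control and 2.64 FPKM in knockout livers (adjusted p = 4.31e-04) and was tested only through its knockout values. The type 2 marker Gata3 was at 0 to 0.276 FPKM in the controls and 0.132 to 0.45 FPKM in the knockouts. The part of all these cells in the Il1rl1 values was not tested.

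Ordered by level, control livers had the most Il1rap (43.2 FPKM) and Il18bp (26.0 FPKM), followed by Il18, Il1r1 and Il1rn at 11.6, 9.995 and 9.49 FPKM. The lowest control was above the highest control of the next gene for Il1rap against Il18bp, for Il18bp against Il18, and for Il1rn against Il1a, whereas Il18, Il1r1 and Il1rn overlapped one another in that order. Il1a, Il1b and Il33 averaged 1.997, 1.47 and 0.999 FPKM and also overlapped from one to the next, with Il1r2 and Il1rl1 last. In knockout livers the order was Il18bp (61.4 FPKM), Il1rap, Il1rn, Il1r1, Il1b, Il1r2, Il18, Il1a, Il33 and Il1rl1. There Il1r1, Il1b, Il1r2, Il18 and Il1a overlapped from one to the next, and so did Il1rap and Il1rn. Il1r2 thus went from the 9th to the 6th place and Il1rap from the 1st to the 2nd.

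Ratios within a library compare an agonist or receptor with its brake, or for Il1rl1 to Il33 a receptor with its ligand. They are free of the library's scaling except for the constant of 0.5 FPKM added to both. The ratio of Il1rn to Il1b was 1.85, 2.19 and 3.54 log2 units in control and 1.57, 1.26 and 0.96 in knockout libraries, so antagonist RNA exceeded Il1b RNA in every library. Its mean was 2.53 ± 0.89 in control and 1.26 ± 0.30 in knockout libraries, a difference of -1.27 log2 units, which was -0.76 without control 3. The ratio of Il1r2 to Il1r1 was -4.27, -3.66 and -3.71 in control and -1.05, -0.33 and -0.32 in knockout libraries. The decoy therefore stayed below the signalling receptor in all libraries, and the mean difference between groups was 3.31 log2 units. In plain FPKM the decoy was at 0 to 0.036 of Il1r1 in control and at 0.466 to 0.791 of it in knockout libraries. The ratio of Il18bp to Il18 was 0.54, 1.43 and 1.59 in control and 2.83, 2.97 and 3.91 in knockout libraries, a mean difference of 2.05. The ratio of Il1rl1 to Il33 had Il1rl1 at 0 in the controls and is set by the added constant, so that only its FPKM values above are informative. None of the 4 ratios overlapped between groups, but neither did the groups of 43.5% of all single genes tested. The Il1rl1 to Il33 ratio is set by the constant, and each other ratio holds a gene whose own groups did not overlap. The exact two-sided permutation test gave p = 0.1 for each of the 4 ratios, also after adjustment over them. That is the smallest p that 3 against 3 libraries allow, so no ratio could pass the threshold.

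**Figure D3:**
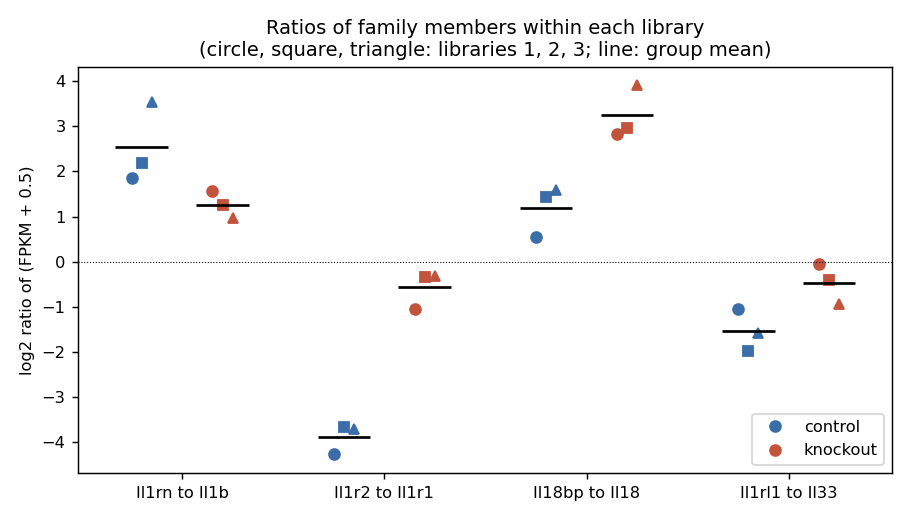
Log2 ratio of (FPKM + 0.5) between family members in each library; symbols mark libraries 1, 2 and 3 and lines the group mean. The Il1rn to Il1b ratio lies lower in knockout libraries (mean 1.26 against 2.53), and the Il1r2 to Il1r1 and Il18bp to Il18 ratios lie higher (-0.57 against -3.88, and 3.24 against 1.19).

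Many family genes lie side by side in the genome (GENCODE positions in GRCm38; the authors used mm9). Il1r2 (ENSMUSG00000026073) spans 40074079 to 40125231 on chromosome 1 and is followed on the same strand by Il1r1 (ENSMUSG00000026072, 40225080 to 40317257), Il1rl2, Il1rl1 (ENSMUSG00000026069, 40429570 to 40465415), Il18r1 and Il18rap, with no other protein-coding gene among these 6 in 478 kb. Il1r1, whose start lies 151 kb from that of Il1r2, was not called. At the far end, Il18r1, the ligand-binding chain of the interleukin-18 receptor, measured 0.536 to 0.779 FPKM in the controls and 0.229 to 0.676 FPKM in the knockouts and was not called (adjusted p = 0.434). Its accessory chain Il18rap, which adjoins it, measured 0.357, 0.0925 and 0.328 FPKM in the controls and 1.45, 0.761 and 1.26 FPKM in the knockouts (log2 fold change 1.12 ± 0.32, adjusted p = 0.03). Its control values all lay below the minimum, so it was tested only through its knockout values. That call was lost without control 1, control 2, knockout 1 or knockout 3, with adjusted p of 0.0582 to 0.1. Il18rap was named after its values were seen. On chromosome 2, Il1a (ENSMUSG00000027399, 129299610 to 129309972, minus strand) and Il1b (ENSMUSG00000027398, 129364570 to 129371139, minus strand) are neighbours, while Il1rn (ENSMUSG00000026981, 24336853 to 24351494) lies in a distant group with the interleukin-36 genes.

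**Figure D4:**
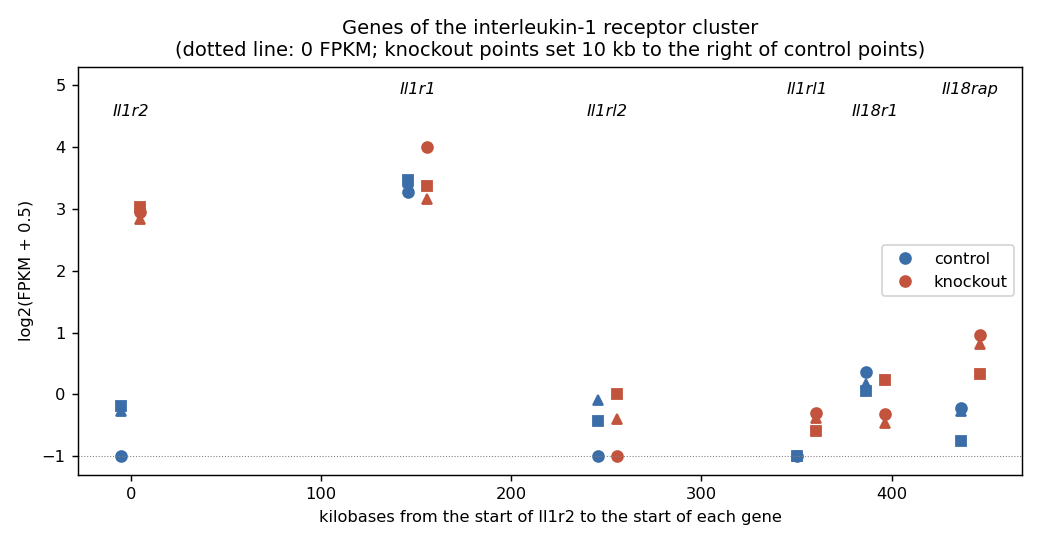
Log2(FPKM + 0.5) of the 6 genes of the receptor cluster against the distance of each gene's start from that of Il1r2, in kilobases; symbols mark libraries 1, 2 and 3, and the dotted line is 0 FPKM. Il1r2 is at 0 to 0.373 FPKM in the controls and 6.63 to 7.69 FPKM in the knockouts, whereas the groups of Il1r1 overlap at 9.11 to 10.5 and 8.39 to 15.6 FPKM.

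The promoters of the 4 genes that rose are shown because these members changed together, so that the DNA before their starts can be read side by side. Each line holds the 250 bases before a RefSeq start in GRCm38.p6, and capitals mark matches, on either strand, to 4 motifs: an NF-kB-type site (GGNNTTTCC), a C/EBP-type site (TTGCNNAA), a STAT-type site (TTCNNNGAA) and the core of a PU.1 site (GAGGAA). The motifs were chosen after several patterns had been searched in these promoters and their matches seen, the NF-kB-type letters knowing that they matched Il1rn, so a match is no independent evidence. For Il1rn the downstream one of its 3 listed starts is shown. The windows of Il1r2 and Il18bp lie inside the GENCODE spans of these genes. Those spans begin at 40074079 and, on the minus strand, at 102018690. The bases before these 2 GENCODE starts were not read.
Il1r2, chr1:40085843-40086092, plus strand: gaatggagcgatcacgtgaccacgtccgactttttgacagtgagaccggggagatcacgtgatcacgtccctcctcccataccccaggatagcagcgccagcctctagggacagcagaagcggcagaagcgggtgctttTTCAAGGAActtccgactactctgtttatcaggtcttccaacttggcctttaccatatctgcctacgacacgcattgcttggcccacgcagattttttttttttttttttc
Il1b, chr2:129371140-129371389, minus strand: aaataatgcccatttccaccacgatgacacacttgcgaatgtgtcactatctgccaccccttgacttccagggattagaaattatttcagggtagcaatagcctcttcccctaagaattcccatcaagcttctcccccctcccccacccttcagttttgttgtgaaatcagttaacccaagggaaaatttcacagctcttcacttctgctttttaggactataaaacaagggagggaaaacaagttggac
Il1rn, chr2:24345121-24345370, plus strand: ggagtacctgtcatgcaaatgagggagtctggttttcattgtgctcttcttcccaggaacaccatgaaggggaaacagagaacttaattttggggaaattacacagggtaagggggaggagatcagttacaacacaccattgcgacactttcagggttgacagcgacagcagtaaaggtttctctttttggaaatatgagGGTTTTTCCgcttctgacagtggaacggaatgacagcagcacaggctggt
Il18bp, chr7:102018233-102018482, minus strand: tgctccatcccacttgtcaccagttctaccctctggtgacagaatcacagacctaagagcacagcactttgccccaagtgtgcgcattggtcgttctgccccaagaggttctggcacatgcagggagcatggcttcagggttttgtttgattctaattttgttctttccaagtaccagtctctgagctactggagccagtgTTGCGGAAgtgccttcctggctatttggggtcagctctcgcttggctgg

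Il1r2 held 1 match, TTCAAGGAA of the STAT type, whose first base lies 111 bases before the start. Il1rn held GGTTTTTCC of the NF-kB type at 50 bases before the start shown and no match at its other 2 starts. Il18bp held TTGCGGAA of the C/EBP type at 49 bases before its start, and Il1b held none of the 4 motifs in this window. Matches were not confined to the genes that rose. The C/EBP type also matched before a start of Il1r1, Il33 and Il1rl1, and the PU.1 core before that of Il1a. None of those members was called higher. Among all 32851 windows of this length, 4.93% held the NF-kB-type letters, 9.56% the C/EBP type, 7.02% the STAT type and 23.3% the PU.1 core. The 4 genes shared no motif of these in the window, and a match is a description of the letters only.

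Of the 11 other family rows in the table, 4 were tested, 2 were called higher and none lower, against 14.1% called higher among all genes. The 2 called genes, Il1f9 and Il18rap, were tested only through their knockout values, since their control means lay below the minimum, so these calls are a description and not support. Il1f9, which encodes interleukin-36 gamma, was listed at 0 in all controls and at 1.64, 0.305 and 2.48 FPKM in knockout libraries, or 6, 1 and 8 steps. It was called (adjusted p = 0.0213), but not without control 1, control 2 or knockout 1 (adjusted p of 0.0579, 0.0597 and 0.0742). Without knockout 3 it did not reach the minimum level and was not tested. The inhibitory receptor Sigirr measured 7.87 to 11.1 FPKM in the controls and 10.05 to 14.8 FPKM in the knockouts and was not called (adjusted p = 0.228). The other interleukin-36 genes Il1f5, Il1f6 and Il1f8 and the related Il1f10 were listed at 0 in all libraries.

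Among genes that process or activate the cytokines, 5 of 10 tested were called higher and none lower, against 14.1% called higher among all genes. The inflammasome adaptor Pycard rose from 0.975 ± 0.493 to 4.04 ± 0.597 FPKM (adjusted p = 0.00352). The sensor Nlrp3, named after its value was seen, rose from 0.529 to 2.34 FPKM (adjusted p = 0.00694). Casp1, the protease that matures interleukin-1 beta and interleukin-18, measured 1.88, 2.61 and 2.61 FPKM in the controls and 3.92, 2.35 and 7.16 FPKM in the knockouts. Its groups overlapped and it was not called (adjusted p = 0.166), although it was without knockout 2 (log2 fold change 1.03, adjusted p = 0.0384). Without knockout 3 the log2 fold change of Casp1 went from 0.69 to 0.32 (adjusted p = 0.466). The neutrophil proteases, which can also cleave these cytokines, were the other called genes. Ctsg, Elane and Prtn3 had log2 fold changes of 3.66 ± 0.44, 3.08 ± 0.55 and 1.53 ± 0.18 (adjusted p = 5.36e-04, 0.00352 and 4.83e-04). Ctsg and Elane were at 0 to 1.41 and 0 to 2.09 FPKM in the controls. Prtn3 was unlike them, at 49.5 to 75.2 FPKM in the controls and 154 to 192 FPKM in the knockouts. The source of its RNA in control livers was not tested. The change of Ctsg was 3.07 without control 2 and that of Elane 3.69 without control 3. Elane is also on the neutrophil marker list.

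Along the path from the receptor to TAK1 and NF-kB, 4 of 26 tested genes were called higher and none lower, against 14.1% called higher among all genes, and the median log2 fold change was 0.22. Irak3, which encodes a kinase-dead brake on this pathway found mainly in myeloid cells, measured 0.752, 0.936 and 1.25 FPKM in the controls and 5.61, 5.78 and 6.69 FPKM in the knockouts. The knockouts were close together and well above the controls, and Irak3 rose with a log2 fold change of 2.15 ± 0.22 (adjusted p = 2.63e-04). Nfkb1 and the kinase Irak4 rose with log2 fold changes of 0.91 ± 0.20 and 0.83 ± 0.19 (adjusted p = 0.00876 and 0.0113). The adaptor Myd88 was called as well (log2 fold change 0.65 ± 0.18, adjusted p = 0.0292), but not without control 1, control 2, control 3, knockout 1 or knockout 3 (adjusted p of 0.0513 to 0.0919).

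Of 30 genes known to respond to interleukin-1 or NF-kB, 23 were tested, of which 19 were higher and none lower. Of all genes tested 14.1% were called higher. The median log2 fold change of the list was 1.86, against -0.0007 for all genes tested. Like the other lists, this one was chosen with earlier results of these data known, so its count and median are a description only. The 4 called genes with the largest change were Saa3, Saa2, Lcn2 and Saa1, with log2 fold changes of 5.07 ± 0.42, 4.13 ± 0.96, 4.12 ± 0.25 and 3.38 ± 0.79. Saa2 and Saa1 varied widely among the controls, at 168 to 3523 and 447 to 5249 FPKM. Without control 1 their log2 fold changes were 2.86 and 2.32, without control 2 they were 5.06 and 4.10, and neither was called with a robust variance estimate (adjusted p = 0.092 and 0.0686). These acute phase genes respond to several cytokines and not to interleukin-1 alone. Il6 was listed at 0 in 5 of the 6 libraries, and Ptgs2, Ccl20 and Csf2 at 0 in all of them. Of 10 genes linked to interleukin-33 or interleukin-18 action, 5 were tested, 2 were higher (Retnla and Chil3) and none lower. Both were tested only through their knockout values, so this count partly follows from the minimum. Il5, Il13 and other low cytokines did not reach the minimum. Among these, Ifng was at 0.407 and 0.377 FPKM in controls 1 and 3 and at 0 in control 2 and every knockout. Il5 was seen only in knockout 1, at 0.297 FPKM. The macrophage lectin Chil3, also on the monocyte list, was at 0 to 0.308 FPKM in the controls and 51.1 to 78.0 FPKM in the knockouts.

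**Figure D5:**
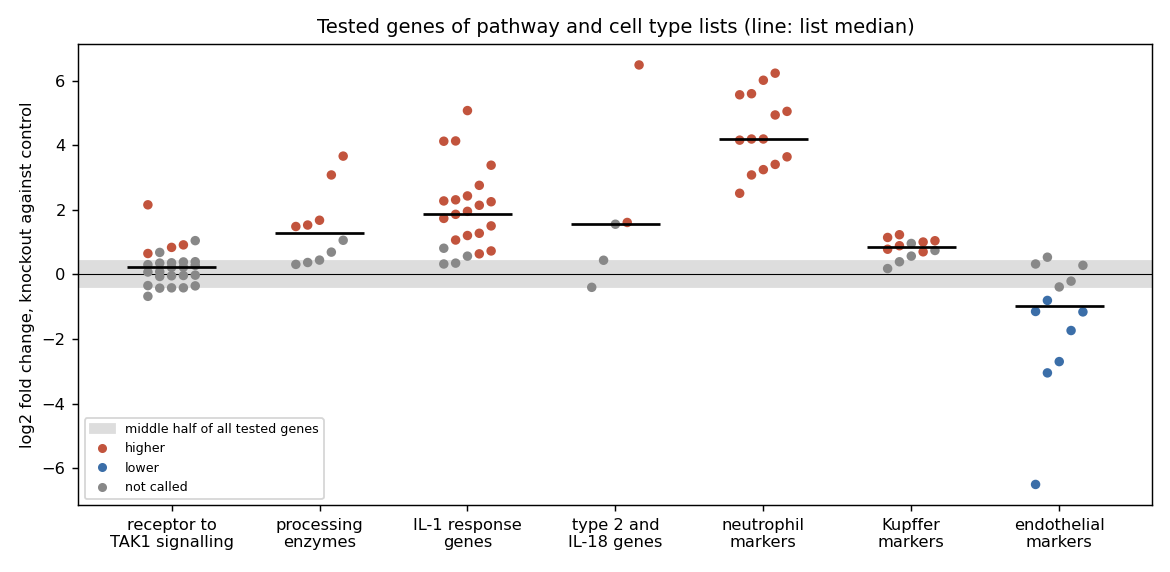
Log2 fold change of each tested gene of 4 pathway lists and 3 marker lists, coloured by its limma call, with a line at each list's median; the grey band holds the middle 50% of all tested genes. The medians are 0.22 for receptor to TAK1 signalling, 1.86 for interleukin-1 response genes, 4.19 for neutrophil markers, 0.83 for Kupffer cell markers and -0.98 for endothelial markers; they include genes tested only through the group where they were high, such as 6 of the 14 neutrophil markers.

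Markers of blood and liver cells moved beside these results. Their counts stand against 14.1% called higher and 13% called lower among all genes tested. All 14 neutrophil markers in the table were called higher, 6 of which were tested only through their knockout values, and their summed level was 37.6 to 78.3 FPKM in the controls and 1757 to 1850 FPKM in the knockouts. None of these markers was at 0 in a knockout library, whereas Ngp, Camp, Ltf, Elane and Stfa2l1 were each at 0 in at least 1 control. Of 10 monocyte markers 9 were called higher, 5 of which were tested only through their knockout values. Fn1, the fibronectin gene, which other liver cells express too, held 98.6% of the summed control level, and the other 9 markers summed to 2.69 to 7.52 FPKM in the controls and 108 to 141 FPKM in the knockouts. Of 12 Kupffer cell markers 7 were called higher and none lower, with summed levels of 773 to 1279 and 1488 to 1910 FPKM. Clec4f, Timd4, Marco, Clec1b and Cd163 were not called. Of 12 endothelial markers 7 were called lower and none higher, with summed levels of 132 to 205 and 66.8 to 76.2 FPKM. Clec4g alone was at 44.4 to 63.8 FPKM in the controls and 0 to 0.381 FPKM in the knockouts, and the other 11 markers summed to 86.97 to 148 and 66.8 to 76.2 FPKM. Clec4g and Ptprb were tested only through their control values, and Pecam1, Cdh5, Eng, Emcn and Stab2 were not called. Neutrophils and monocytes are known to carry Il1r2, Il1b and Il1rn RNA, and the part of these cells in the higher levels of the 3 genes was not tested.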

How the data were processed

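Whole liver libraries (TruSeq Sample Prep v2, paired ends, Illumina HiSeq, per the labels' protocols) formed 2 groups of 3 by the sample titles. The submitters' processing notes name build mm9, Cuffnorm 2.2.1, Cuffdiff 2.2.1, TopHat2 2.1.0 and Trimmomatic 0.33; annotation and settings are not given in the sources used here. FPKM values were deposited by the authors, 1 column a library; counts were not analysed here, and absolute depth is unknown. Knockouts 1 and 3 carry an added "no2" in their descriptions, and no label explains it. Nothing says whether replicates were separate animals, so p-values reflect only the spread among these libraries, which may be technical. Alb, listed at 0 in every control, was left out as a failed estimate.

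Groups were compared with limma 3.58.1 in R 4.3.3 (lmFit, eBayes with trend, two-sided), as described in the report. Ratios used exact permutation in scipy 1.17.1. The fit was first tested on simulated data. Recovery was 46% for a simulated shift of 1 on the log2 scale and 94% for a shift of 2, with 100 shifted genes each. False calls numbered 6 among 11640 genes left unshifted. The shifted genes were drawn from those whose control mean of log2(FPKM + 0.5) was above 2, which leaves out Il1a. Far fewer genes were shifted than the 27% called in the data, so recovery in the data may differ. A real change near 1 log2 unit could go uncalled, and an uncalled gene such as Il1a or Il18 is not shown to be unchanged. Relative depth came from the commonest log2 ratio between libraries of values under 0.3 FPKM. Steps were accepted when all 6 values lay within 0.02 steps plus 0.003 per step of a whole number, up to 60 steps, which held for 35.6% of 2671 genes averaging 0.5 to 2 FPKM. A step was the smallest nonzero value or that value divided by 2. This limit was set after seeing the data: divisors up to 4 were tried first, gave 51% and resolved Il18 at a step of 1.22 FPKM, which was judged implausibly large; the steps of Il1b, Il1a, Il1r2, Il33 and Il1f9 were the same under both limits.

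The members, lists and tests were chosen with earlier results of these data known. Named from each pathway list were up to 4 called genes with the largest change that reached 2 FPKM in the higher group, or the 2 most abundant where fewer than 2 were called or none reached that level; others are named by their values as stated. Marker genes, Marco, Il7r, Gata3, Prss34, Mcpt8, Nlrp3, Casp1, Il1f9, Il18r1 and Il18rap were named after their values were seen, and the promoter motifs were chosen after their matches were seen. Alternatives were other pseudocounts, filters, scalings and variance models, weights for libraries, the replicate number as a block, and leaving out single libraries. Promoters are from RefSeq (all 10 genes matched). Figures used matplotlib 3.10.9.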

Additional observations from a re-analysis of the deposited data

How the results depend on the processing

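The 4 higher members (Il1b, Il1rn, Il1r2 and Il18bp) were called in all 16 alternatives, with adjusted p up to 0.0207. The single lower call, Il1rap, was lost without a variance trend (0 lower members, adjusted p = 0.0542), and lower members numbered 0 to 1 with 1 library left out. Among tested members, Il1r1 changed sign, without knockout 1 (-0.13 to 0.30 with 1 library left out), as did Map3k7 without knockout 3 (-0.099 to 0.062). Genes called lower overall numbered 943 to 1497 with 1 library left out, against 1534. Rescaling to equal summed FPKM shifted the median of all tested genes by log2 from -0.0007 to -0.10 and the calls from 1669 higher and 1534 lower to 1354 and 2076; equal medians gave 1449 and 2025. Neither scaling changed the direction of a tested member. The difference in the Il1r2 to Il1r1 ratio was 4.61 with a pseudocount of 0.1 and 2.63 with 1, and that in the Il1rl1 to Il33 ratio was 2.53 with 0.1. With no filter on low values Il1rl1 was also called (adjusted p = 0.0414). With the replicate number as a block, 1575 genes were higher and 1385 lower, members stayed at 4 and 1, and Myd88 lost its call (adjusted p = 0.0502). Myd88 also lost it without a trend (0.0533) and with equal medians (0.0566). Same-numbered libraries deviated from their group means with correlations of -0.01, -0.0001 and 0.0015. Pairs with different numbers gave -0.036 to 0.037. These values gave no sign of pairing but cannot exclude it. Other calls lost are given in the report; the cause was not tested. Depth limits Il1b, Il1a, Il1r2 and Il33, whose values lie on few steps.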
